A study of Mus musculus with 9 samples.

Results

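A set of 10 genes of the tumour necrosis factor (TNF) superfamily was followed in mouse microglia at 3 ages. They are the ligand genes Tnf, Tnfsf8, Tnfsf9, Tnfsf10 and Tnfsf13b and the receptor genes Tnfrsf1a, Tnfrsf1b, Tnfrsf11a, Tnfrsf13b and Tnfrsf17. They were taken by symbol from a table of 22036 genes. All 10 were in it, and all 10 were among the 14955 genes with a log2 value of at least 3.32 in at least 3 libraries, which were the genes tested. Microglia, the resident macrophages of the brain, were sorted by flow cytometry from female wild-type C57BL/6 mice. Mice were young (6 months), middle-aged (15 months) or old (23 months). There were 3 libraries per age. A library is a pool of cells from 3 mice and not an animal.

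TNF family ligands are made as membrane proteins that assemble into trimers, and several are cut from the cell surface by proteases. Their receptors carry cysteine-rich repeats outside the cell and, inside it, either death domains or docking sites for TRAF adaptors, through which they switch on NF-kB, MAP kinases or cell death. Microglia are a main source of TNF in the brain, and the family also holds the ligands and receptors that keep B cells and plasma cells alive.

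All values below are the deposited ones, on a log2 scale of normalized counts, and a change of 1 is a doubling on that scale. The read depth behind them is unknown. Of 14 microglia markers listed, 12 were in the table, with values over the 9 libraries from 14.07 for Sall1 to 19.04 for Csf1r. Of these, 3 fell in old against young libraries, Slc2a5, Siglech and Fcrls, by 0.50, 0.37 and 0.39 on the log2 scale (limma adjusted p from 0.0331 to 0.0494). Over all genes tested, 0.301% were called lower in that comparison. Old replicate 3 stood apart from the other libraries, at 29.9 on the first principal component against -14.4 to 5.9, so each gene called by limma in a comparison with old libraries is also given without it. Those 3 markers were not called without it (limma adjusted p from 0.0789 to 0.117). With all libraries, 7 of the 12 markers were lower and 2 higher at an unadjusted p under 0.05 (limma), against 16.8% of all genes in either direction. Old and young libraries did not overlap for 7 lower markers and 2 higher, where 24.5% of all genes did not overlap. The authors' deposited table called 4 lower and 0 higher. Middle-aged replicate 2 had the highest neutrophil marker score, a mean deviation of 1.0 on the log2 scale against -0.79 to 0.17 elsewhere. In sorted bulk samples, fewer cells of a type and less RNA per cell cannot be told apart.

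In all, 3 ligand genes rose and 1 receptor gene fell between 6 and 23 months. On the deposited scale, Tnfsf8, Tnf and Tnfsf9 were 2.10-fold, 1.88-fold and 1.81-fold higher in old than in young libraries, and Tnfrsf17 was at 0.656 of its young value. The other 6 genes did not pass the test. Thus 4 of the 10 genes were called at an adjusted p under 0.05, where 2.0% of all 14955 genes were called, 1.7% higher and 0.301% lower (limma moderated test, Benjamini-Hochberg). The median log2 change of the 10 genes was 0.15, and that of all genes tested was -0.0086. The groups did not overlap for 6 of the 10 genes, 4 higher and 2 lower in old libraries, where 24.5% of all genes did not overlap, 12.2% higher and 12.3% lower. Leaving out old replicate 3 gave 3 called genes, and leaving out young replicate 1 or young replicate 2 gave 2. Over all 9 fits that left out 1 library, Tnf and Tnfsf8 were called in 9, Tnfsf9 in 6 and Tnfrsf17 in only 2.

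**Figure D1:**
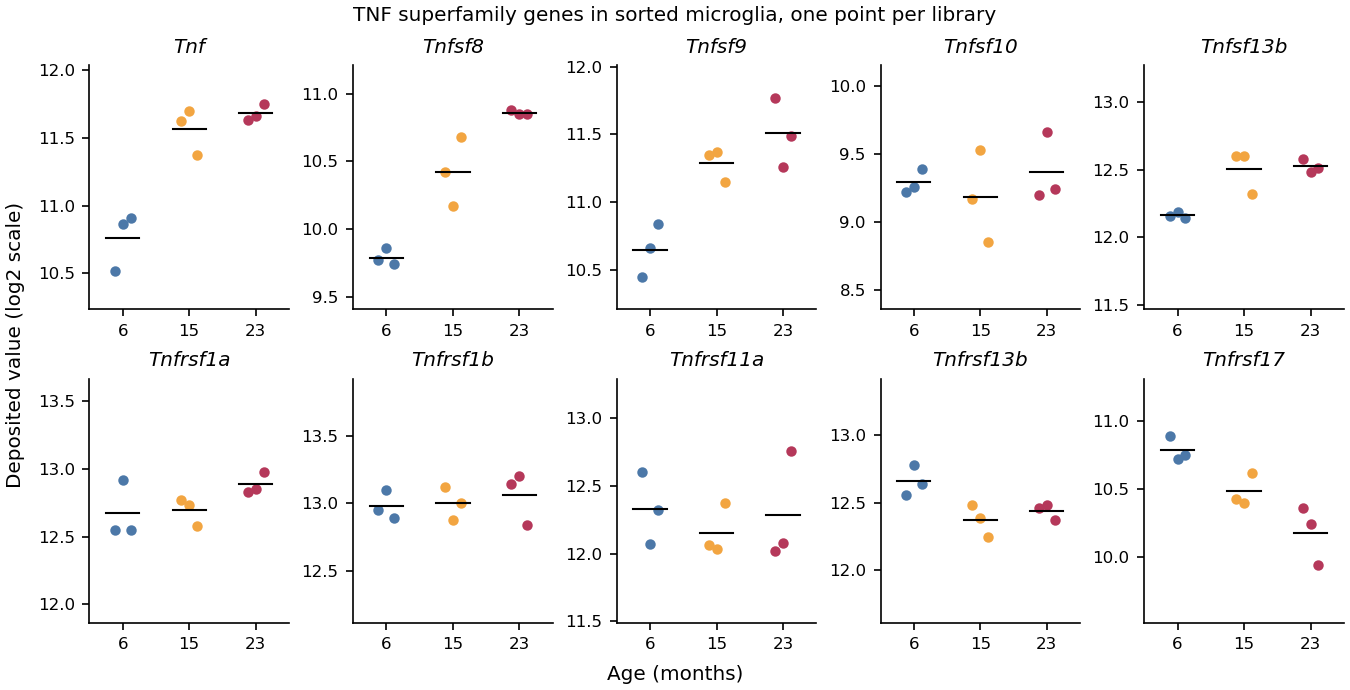
Deposited log2-scale values (y axis) of the 10 TNF superfamily genes at 6, 15 and 23 months (x axis); each point is 1 of 3 libraries per age, bars are means, and every panel spans the same height of the log2 scale. Tnf, Tnfsf8, Tnfsf9 and Tnfsf13b lie higher in all 15-month and 23-month libraries than in any 6-month library, and Tnfrsf13b and Tnfrsf17 lie lower.

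Tnf encodes the founding cytokine of the family, which acts through the receptors of Tnfrsf1a and Tnfrsf1b. The gene lies on chromosome 17 at 35199381 to 35202007 (minus strand, GRCm38). Between Ltb at 35194439 to 35196320 and Lta at 35203165 to 35205351, it is the middle gene of a cluster of 3 family ligands. The RefSeq promoter window, 250 bases before to 50 after the start, is shown for the called genes Tnf, Tnfsf8 and Tnfrsf17, since these moved with age. Tnfsf9 was also called, but no window was found for it. The sequences are from GRCm38.p6, 5′ to 3′ on the gene's strand, at chr17:35201958-35202257 for Tnf, chr4:63861235-63861534 for Tnfsf8 (both minus strand) and chr16:11313559-11313858 for Tnfrsf17 (plus strand). Capitals mark any match to 5 motifs that were searched, which are described below the sequences.
Tnf: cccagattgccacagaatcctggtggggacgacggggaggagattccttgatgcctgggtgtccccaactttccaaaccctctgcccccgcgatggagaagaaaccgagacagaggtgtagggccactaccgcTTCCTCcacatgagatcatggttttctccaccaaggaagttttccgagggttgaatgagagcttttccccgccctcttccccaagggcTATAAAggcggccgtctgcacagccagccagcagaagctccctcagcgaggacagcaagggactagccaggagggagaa
Tnfsf8: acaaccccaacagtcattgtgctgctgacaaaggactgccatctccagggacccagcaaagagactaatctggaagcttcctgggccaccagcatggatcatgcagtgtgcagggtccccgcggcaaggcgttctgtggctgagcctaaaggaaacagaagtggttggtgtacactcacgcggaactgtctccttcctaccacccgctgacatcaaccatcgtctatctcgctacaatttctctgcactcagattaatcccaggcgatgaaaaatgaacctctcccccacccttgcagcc
Tnfrsf17: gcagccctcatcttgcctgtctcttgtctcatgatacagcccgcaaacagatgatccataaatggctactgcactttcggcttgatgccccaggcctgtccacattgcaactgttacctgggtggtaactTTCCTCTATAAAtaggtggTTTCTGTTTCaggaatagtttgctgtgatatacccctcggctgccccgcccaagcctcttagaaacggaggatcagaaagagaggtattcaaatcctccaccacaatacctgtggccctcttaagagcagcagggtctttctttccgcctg

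The motifs were the NF-kB consensus, the AP-1 site TGANTCA, the PU.1 core GAGGAA, the interferon response element (a pair of GAAA blocks with any 2 bases between them), all on both strands, and the TATA box TATAAA on the gene's strand. In the Tnf window, TATAAA began 29 bases before the start (position -29) and GAGGAA, on the opposite strand, began at -117. The Tnfsf8 window held none of the 5. In the Tnfrsf17 window GAGGAA on the opposite strand began at -120, directly beside TATAAA at -114, and the interferon element on the opposite strand began at -101. Windows were found for 9 of the 10 genes, 10 windows in all since Tnfsf13b had a pair. NF-kB matched 0 of these 10, AP-1 2, the PU.1 core 3, the interferon element 3 and TATAAA 2. The 2 windows with AP-1 were the Tnfsf13b pair, which overlap and share the same match, so they stand for 1 gene. Of all 32851 windows in the table, 4.51% held an NF-kB match, 7.81% an AP-1 match, 28.3% the PU.1 core, 3.44% the interferon element and 8.32% TATAAA. A match is a string of letters and was not tested as a site.

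Tnf had values of 10.52, 10.86 and 10.91 in young libraries, 11.62, 11.70 and 11.37 in middle-aged ones and 11.63, 11.66 and 11.75 in old ones. Every middle-aged and old library lay above every young one, while middle-aged and old libraries overlapped. In old against young libraries Tnf rose by 0.91 ± 0.128 on the log2 scale (SE, n = 3 per group; limma adjusted p = 0.00524), and it was called in all 9 fits that left out 1 library, with 0.88 without old replicate 3. In middle-aged against young libraries its change was 0.80 ± 0.128, just outside the threshold (limma adjusted p = 0.0545); without old replicate 3, which enters through the shared spread, adjusted p was 0.0424 in limma. In old against middle-aged libraries it was 0.11 ± 0.128 (limma adjusted p = 0.792). The difference between the later and the earlier step was -0.68 ± 0.221, and it did not pass the test (limma adjusted p = 0.478).

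The other ligand genes of that chromosome 17 cluster did not pass the filter on low values. Lta had values from 2.72 to 2.77 and Ltb from 2.55 to 2.58 over the 9 libraries, both under 3.32. The 3′ untranslated region of Tnf is known for an AU-rich element, bound by the decay factor tristetraprolin, which shortens the life of the mRNA. It is shown because the genes that act on it are described with the pathway. The 30 bases with most copies of ATTTA, at chr17:35199679-35199708 (GRCm38, minus strand), begin 437 bases after the stop codon, and capitals mark the 5 copies, which overlap in part.
Tnf AU-rich element: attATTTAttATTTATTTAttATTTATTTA

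Tnfsf8 encodes CD30 ligand, a membrane ligand known from activated T cells and antigen-presenting cells. It lies on chromosome 4 at 63831308 to 63861347 (minus strand, GRCm38). Its values were 9.77, 9.86 and 9.74 in young libraries, 10.42, 10.17 and 10.68 in middle-aged ones and 10.88, 10.85 and 10.85 in old ones. The 3 ages did not overlap, and the old libraries lay closest together, with an SD of 0.0146 against 0.255 in middle-aged and 0.0608 in young libraries. Tnfsf8 rose by 1.07 ± 0.124 in old against young libraries (log2, with its SE over 3 and 3 libraries; limma adjusted p = 0.00149), the largest change of the 10 genes, and was called in all 9 fits that left out 1 library, with 1.08 without old replicate 3. The change in middle-aged against young libraries was 0.63 ± 0.124 (limma adjusted p = 0.108, and 0.0483 without middle-aged replicate 2). In old against middle-aged libraries it was 0.44 ± 0.124 (limma adjusted p = 0.267).

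The receptor of that ligand is encoded by Tnfrsf8 (CD30). It was measured at 6.86, 6.74 and 6.91 in young libraries, 6.91, 6.95 and 6.68 in middle-aged ones and 6.91, 6.91 and 7.44 in old ones. The ages overlapped, and its change in old against young libraries was 0.25 ± 0.139 (limma adjusted p = 0.406). T and NK cells can also make Tnfsf8. Of 12 markers of these cells tested, 1 rose in old libraries, Cd8a (0.25 ± 0.0546, limma adjusted p = 0.044, and 0.0932 without old replicate 3). By an unadjusted p under 0.05, 7 were higher and 1 lower, against 16.8% of all genes in either direction. The old and young libraries did not overlap for 9 of the 12, 8 higher and 1 lower (Cd4), and the authors' deposited table called 4 higher and 0 lower. The mean deviation of the 12 was 0.048 to 0.22 in old libraries and -0.098 to -0.015 in young ones (log2), without overlap. On the unlogged scale the 12 summed to 2255 to 2560 in old libraries and 1993 to 2266 in young ones. The defining marker Cd3e was at 5.50, 5.67 and 5.76 in old libraries and 5.46, 5.50 and 5.49 in young ones. The part of T cells in the Tnfsf8 result was not tested.

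Tnfsf9 encodes CD137 ligand, a co-stimulatory ligand of antigen-presenting cells. It lies on chromosome 17 at 57105325 to 57107757 (plus strand, GRCm38). Its values were 10.45, 10.66 and 10.84 in young libraries, 11.35, 11.37 and 11.15 in middle-aged ones and 11.77, 11.26 and 11.49 in old ones. The young libraries lay below all others, and the middle-aged and old libraries overlapped. Tnfsf9 rose by 0.86 ± 0.146 in old against young libraries (log2, with its SE over 3 and 3 libraries; limma adjusted p = 0.0175). It was called in 6 of the 9 fits that left out 1 library. The limma adjusted p was 0.0872 with young replicate 1 left out, 0.0607 with young replicate 2 left out and 0.0517 with old replicate 1 left out. Leaving out old replicate 3 gave 0.0434. With only old and young libraries in the fit it was 0.0542. The change in middle-aged against young libraries was 0.64 ± 0.146 (limma adjusted p = 0.163). Tnfrsf9, the gene of its receptor CD137, was at 0.97 to 0.99 in all 9 libraries, under the filter.

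Tnfsf13b encodes BAFF, the survival factor of B cells. Its gene lies on chromosome 8 at 10006467 to 10039072 (plus strand, GRCm38). Its values were 12.16, 12.19 and 12.14 in young libraries, 12.60, 12.60 and 12.32 in middle-aged ones and 12.58, 12.48 and 12.51 in old ones. Again every later library lay above every young one, by a smaller step. The change in old against young libraries was 0.36 ± 0.0965 and did not pass the test (log2, with its SE over 3 and 3 libraries; limma adjusted p = 0.0914). In middle-aged against young libraries it was 0.34 ± 0.0965 (limma adjusted p = 0.233).

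Tnfsf10 encodes TRAIL, a ligand that can trigger cell death. Its values ran from 9.22 to 9.39 in young libraries, from 8.85 to 9.53 in middle-aged ones and from 9.20 to 9.66 in old ones. The ages overlapped, and its change in old against young libraries was 0.08 ± 0.176 (limma adjusted p = 0.851). Its mouse death receptor gene, Tnfrsf10b, was low, from 4.87 to 5.01 over the 9 libraries.

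The receptor genes of Tnf itself were not called in any comparison. Tnfrsf1a encodes TNFR1, the death domain receptor found on most cells, and Tnfrsf1b encodes TNFR2, which has no death domain. Tnfrsf1a ranged from 12.55 to 12.92 in young libraries, from 12.58 to 12.77 in middle-aged ones and from 12.83 to 12.98 in old ones. Its old libraries lay above the middle-aged ones but overlapped the young ones, and the change in old against young libraries was 0.21 ± 0.114 (log2, with its SE over 3 and 3 libraries; limma adjusted p = 0.387). Tnfrsf1b ranged from 12.89 to 13.10, from 12.88 to 13.12 and from 12.84 to 13.20 in young, middle-aged and old libraries, and its change was 0.075 ± 0.114 (limma adjusted p = 0.778).

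Tnfrsf11a encodes RANK, the receptor through which RANK ligand drives osteoclast formation. It varied as much within an age as between ages. Its values were 12.60, 12.07 and 12.32 in young libraries, 12.06, 12.03 and 12.37 in middle-aged ones and 12.02, 12.08 and 12.76 in old ones. The highest of the 9 values was that of old replicate 3. In old against young libraries the change was -0.045 ± 0.2 (limma adjusted p = 0.931). Leaving out 1 library moved that value between -0.279 without old replicate 3 and 0.0913 without young replicate 1.

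Of the receptor genes for BAFF, Tnfrsf17 was called in 1 comparison and Tnfrsf13b in none. Tnfrsf17 encodes BCMA, known from plasma cells, and Tnfrsf13b encodes TACI; both bind BAFF. Tnfrsf17 lies on chromosome 16 at 11313812 to 11320074 (plus strand, GRCm38). It had 10.89, 10.72 and 10.75 in young libraries, 10.43, 10.40 and 10.62 in middle-aged ones and 10.36, 10.24 and 9.94 in old ones. The 3 ages did not overlap. Tnfrsf17 fell in old against young libraries, by 0.61 on the log2 scale (-0.61 ± 0.124 SE, n = 3 per group; limma adjusted p = 0.0377). It was called in only 2 of the 9 fits that left out 1 library, those without middle-aged replicate 3 and without old replicate 1. Without old replicate 3, the lowest of its values, the change was -0.49 (limma adjusted p = 0.0675). It was also not called with no filter on low values, with only the 2 ages in the fit, or with the replicate number as a block (limma adjusted p = 0.0602, 0.0821 and 0.0641).

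Tnfrsf13b, on chromosome 11 at 61126755 to 61149372 (plus strand, GRCm38), had 12.56, 12.78 and 12.64 in young libraries, 12.48, 12.39 and 12.25 in middle-aged ones and 12.46, 12.48 and 12.37 in old ones. All 6 later libraries lay below the young ones. Its change was -0.22 ± 0.096 in old against young libraries and -0.28 ± 0.096 in middle-aged against young libraries, and neither passed the test (limma adjusted p = 0.274 and 0.291). The remaining BAFF receptor gene, Tnfrsf13c, was low and flat, from 4.95 to 5.27 over the 9 libraries.

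Of 13 markers of B and plasma cells tested, 1 was called in old against young libraries. This was Cd22, also known from aged microglia, which rose by 1.05 ± 0.114 (limma adjusted p = 0.00103, and 0.00359 without old replicate 3). At an unadjusted p under 0.05 (limma), 5 of the 13 were higher and 1 lower, against 16.8% of all genes in either direction. Old and young libraries did not overlap for 4 higher genes and 1 lower, and the authors' deposited table called 3 higher and 0 lower. The mean deviation of the 13, Cd22 included, was 0.042 to 0.17 in old libraries and -0.12 to -0.11 in young ones (log2). The 14 markers in the table summed to 16231 to 18023 in old libraries and 13084 to 13597 in young ones on the unlogged scale. Without Cd22, left out after its values were seen, the other 13 summed to 10381 to 11898 in old libraries and 10111 to 10769 in young ones, which overlap. The B-cell marker Cd79a had 7.99, 8.66 and 8.46 in old libraries and 8.05, 7.95 and 7.91 in young ones, and it was not called (0.40 ± 0.162, limma adjusted p = 0.247). Cd79b, of the same receptor complex, had 11.52, 11.60 and 11.56 in old libraries and 11.70, 11.76 and 11.89 in young ones, and it was not called either (-0.22 ± 0.092, limma adjusted p = 0.262). Jchain had 0.53 ± 0.185, Mzb1 0.34 ± 0.121 and Irf4 -0.20 ± 0.195 (limma adjusted p = 0.182, 0.191 and 0.653). In the authors' deposited table Jchain and Mzb1 were called higher (the authors' adjusted p = 0.0194 and 6.37e-05) and Irf4 was not called. Of 10 border macrophage markers 2 were called lower by limma in the same comparison, Mgl2 and Stab1. Neither was called without old replicate 3 (limma adjusted p = 0.0771 and 0.0857). The 10 summed to 87120 to 110719 in old libraries and 133057 to 140713 in young ones. At an unadjusted p under 0.05 (limma), 9 of the 10 were lower and 0 higher. Old and young libraries did not overlap for 9 lower genes and 1 higher (Ms4a7), where 24.5% of all genes did not overlap. The authors' deposited table called 6 lower and 0 higher. The mean deviation of the 10 was -0.37 to 0.0092 in old libraries and 0.23 to 0.29 in young ones (log2). The part of B cells and border macrophages in the Tnfrsf17 result was not tested.

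**Figure D2:**
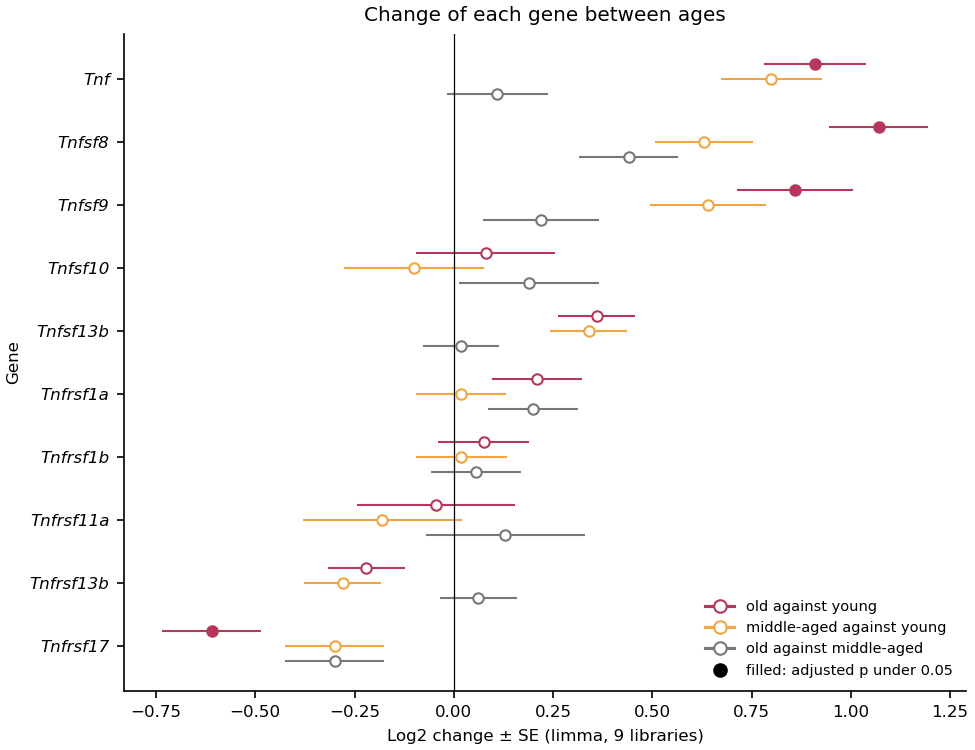
Log2 change with its SE (x axis) for the 10 genes (y axis) in each of 3 comparisons between ages; filled points have a limma adjusted p under 0.05. The filled points are Tnf, Tnfsf8 and Tnfsf9 to the right of 0 and Tnfrsf17 to the left, all in old against young libraries.

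The comparison of 15 with 6 months gave 0 of 10 genes called at an adjusted p under 0.05, where 0.114% of all genes were called, while 6 of the 10 had an unadjusted p under 0.05, against 11.4% of all genes (limma moderated test). The median change of the 10 genes was 0.018 (log2), against -0.00082 over all genes tested. Those 6 were the 4 higher and 2 lower genes whose middle-aged and young libraries did not overlap; 21.6% of all genes did not overlap. The authors' deposited table called 4 of the 10 for the same ages, where it called 5.78% of all genes with an adjusted p, 3.26% of all genes higher. In it Tnf had a log2 fold change of 0.88 (adjusted p = 2.69e-05), Tnfsf8 0.80 (0.000423), Tnfsf9 0.74 (0.000503) and Tnfsf13b 0.42 (0.0333).

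Between 15 and 23 months 0 of the 10 genes were called by limma and 0 in the authors' deposited table, where 0.174% and 1.32% of all genes were (0.0134% and 0.466% lower). The unadjusted p was under 0.05 for 2 of the 10, Tnfsf8 and Tnfrsf17, against 10.2% of all genes. The median change of the 10 was 0.12 (log2), against -0.004 over all genes tested. The groups did not overlap for 3 genes, Tnfsf8, Tnfrsf1a and Tnfrsf17, where 12.9% of all genes did not overlap, 6.47% higher and 6.41% lower. The difference between the 2 steps was called for 0 of 10 genes, where 0.0% of all genes were called, and its unadjusted p was under 0.05 for Tnf alone, against 7.9% of all genes (limma).

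For old against young libraries, the authors' deposited table, whose columns carry the names DESeq2 gives, called 5 of the 10 genes, where it called 7.62% of all genes, 4.72% higher and 2.9% lower. These were the 4 genes called by limma and Tnfsf13b. In that table the log2 fold change was 1.69 for Tnfsf8 (adjusted p = 1.84e-34), 1.14 for Tnf (1.19e-08), 1.00 for Tnfsf9 (3.63e-05), 0.48 for Tnfsf13b (0.000103) and -0.79 for Tnfrsf17 (0.00136). For each of these 5 genes the authors' fold change was larger in size than the difference between the deposited values, most so for Tnfsf8. Those differences were 1.07 for Tnfsf8, 0.91 for Tnf, 0.86 for Tnfsf9, 0.36 for Tnfsf13b and -0.61 for Tnfrsf17. Fold values taken from the deposited scale are thus smaller than the authors' for these genes. The reason was not tested. The comparisons of both later ages with the young one share the young libraries.

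Levels of different genes can be set side by side only per length, so log2 of the exon length in kilobases (GENCODE M21) was taken off each value. On that scale Tnfrsf1a was highest of the 10, at 11.38 ± 0.16 (mean ± SD of 9 libraries), followed by Tnfrsf1b at 11.08 ± 0.129, Tnfrsf13b at 10.99 ± 0.155, Tnfrsf17 at 10.78 ± 0.294, Tnfsf9 at 10.78 ± 0.422 and Tnf at 10.62 ± 0.453. Each of these overlapped the next in the range of its libraries. Lower were Tnfrsf11a at 9.68 ± 0.273, whose range still met that of Tnf, and Tnfsf13b at 9.62 ± 0.194, which also overlapped each other. Tnfsf8 at 8.43 ± 0.485 and Tnfsf10 at 6.88 ± 0.232 lay apart, with no library of either reaching the gene above it.

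The rest of the family was mostly lower. Of 28 other family genes in the table, 18 were tested. On the per-kilobase scale 2 of them, Tnfrsf21 at 10.87 and Ltbr at 10.28, lay among the higher members. Among ligands, 8 of 13 listed were in the table and 3 were tested. None of those 3 was called in old against young libraries by limma, by an unadjusted p under 0.05 or in the authors' deposited table; Eda had a change of -0.061 and Fasl of 0.019 (log2). Among 15 other receptor genes tested 0 were called by limma and 1 had an unadjusted p under 0.05, Fas, the death receptor gene. Fas was at 9.26, 9.26 and 9.31 in old libraries and 8.92, 9.01 and 8.98 in young ones, a change of 0.31 ± 0.102 (log2 ± SE; limma adjusted p = 0.165). In the authors' deposited table its log2 fold change was 0.61 (the authors' adjusted p = 0.00539). The next by p, Tnfrsf12a, the receptor gene of TWEAK, had 0.22 ± 0.105 (limma adjusted p = 0.335).

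**Figure D3:**
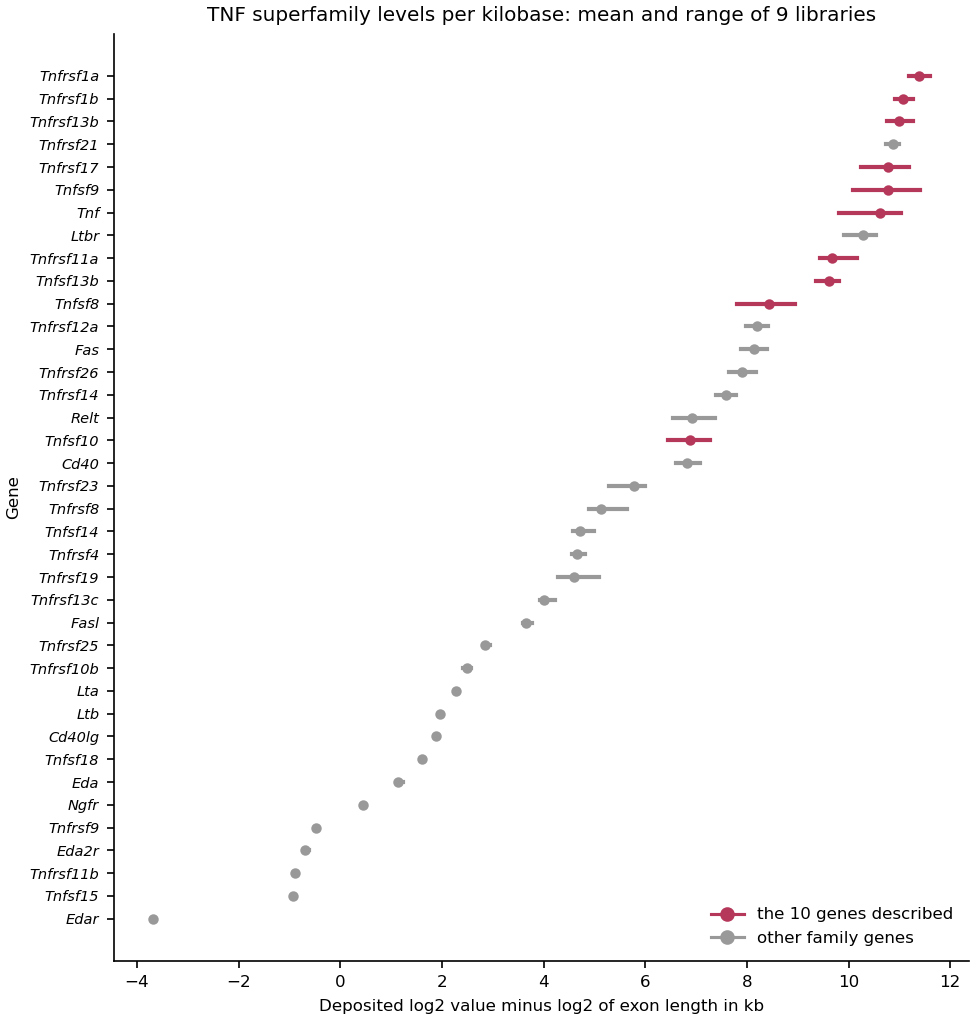
Level per kilobase of exon (x axis, deposited log2 value minus log2 of exon length in kb) of 38 TNF superfamily genes (y axis); points are means and lines the range of 9 libraries. The 10 genes described lie between 6.88 and 11.38, and 11 other family genes lie below 2.5.

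Genes that carry the signal inside the cell, from a list chosen with earlier results known, were not called with age. Of 24 adaptors and kinases tested 0 were called in old against young libraries by limma, 4 had an unadjusted p under 0.05 and 1 was called in the authors' deposited table; their median change was -0.058 (log2). Over all genes 16.8% had an unadjusted p under 0.05, and the shares of the 3 lists here were near that. Tradd, the adaptor of TNFR1, had 0.31 ± 0.102 and the kinase gene Ripk1 had -0.34 ± 0.12 (limma adjusted p = 0.161 and 0.186). Of 12 genes of the death arm and its inhibitors 0 were called by limma, 2 had an unadjusted p under 0.05 and 1 was called lower in the authors' deposited table. The protease gene Casp8 had -0.22 ± 0.0869 and Bid, a substrate of that protease, -0.23 ± 0.0959 (limma adjusted p = 0.233 and 0.264). Of 7 shedding genes 0 were called by limma, 1 had an unadjusted p under 0.05 and 0 were called in the authors' deposited table. That gene, Rhbdf2, encodes a partner of the TNF-releasing protease ADAM17 and had 0.46 ± 0.167 (limma adjusted p = 0.205). The next by p, Sppl2b, which encodes a protease that cuts the membrane stub of TNF, had 0.20 ± 0.0983 (limma adjusted p = 0.338).

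The list of genes that act on Tnf mRNA had its highest score, the mean deviation from the genes' means, in the 3 middle-aged libraries (0.071 to 0.18, against -0.12 to 0.051 elsewhere, log2). Of 11 tested, 0 were called by limma in middle-aged against young libraries. There 6 were higher and 0 lower at an unadjusted p under 0.05 (limma), against 11.4% of all genes in either direction. For those ages the authors' deposited table called 5 higher and 0 lower. The median change was 0.27 (log2), against 0.078 in old against young libraries. Zfp36, which encodes tristetraprolin, had 16.93, 17.31 and 17.12 in young libraries, 17.37, 17.80 and 17.50 in middle-aged ones and 17.36, 17.31 and 17.60 in old ones. This gene is also in the list of immediate early genes described below. Its change was 0.44 ± 0.13 in middle-aged and 0.30 ± 0.13 in old against young libraries (limma adjusted p = 0.246 and 0.268). Khsrp, another gene of AU-rich mRNA decay, had 0.54 ± 0.127 and 0.30 ± 0.127 (limma adjusted p = 0.171 and 0.264). In the 3′ untranslated regions of the principal GENCODE transcripts, the nonamer TTATTTATT occurred 5 times in Tnf and 0 times in Tnfsf8, Tnfsf9, Tnfsf10, Tnfrsf1a, Tnfrsf1b, Tnfrsf11a, Tnfrsf13b and Tnfrsf17. The shorter ATTTA was not particular to Tnf. It occurred 8 times in Tnf (764 bases), 10 in Tnfsf8 (2799 bases), 8 in Tnfsf10 (3998 bases) and 5 in Tnfrsf11a (3115 bases). Tnfsf9, Tnfrsf1b and Tnfrsf13b had 2 each, and Tnfrsf1a and Tnfrsf17 had 0. Tnfsf13b was not counted.

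Of 22 tested genes that TNF induces through NF-kB, 3 rose in old against young libraries, 0 fell and 19 were not called, and their median change was 0.30 (log2). Over all genes 1.7% were called higher and 0.301% lower. The 3 that rose encode chemokines. Ccl3 rose by 0.74 ± 0.14, Ccl4 by 0.67 ± 0.143 and Ccl5 by 0.64 ± 0.143 (limma adjusted p = 0.0287, 0.043 and 0.05, the last just under the threshold before rounding). Without old replicate 3 none of the 3 was called (limma adjusted p = 0.0504, 0.0938 and 0.113). By an unadjusted p under 0.05, 14 of the 22 were higher and 1 lower, where 16.8% of all genes passed in either direction. Old and young libraries did not overlap for 15 higher genes and 3 lower, where 24.5% of all genes did not overlap. The authors' deposited table called 10 higher and 1 lower, Nfkb1, the gene of an NF-kB subunit. In middle-aged against young libraries 0 of 22 were called by limma, and the median change was 0.32. There 13 were higher and 1 lower at an unadjusted p under 0.05 (limma), against 11.4% of all genes in either direction. These ages did not overlap for 12 higher genes and 1 lower, where 21.6% of all genes did not overlap. The authors' deposited table called 11 higher and 0 lower. Nfkbia, the gene of the NF-kB inhibitor IkB-alpha, had 0.71 ± 0.127 in middle-aged and 0.56 ± 0.127 in old against young libraries (limma adjusted p = 0.0761 and 0.0555); it was chosen after its values were seen.

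Immediate early genes, which cells switch on within minutes, including during tissue dissociation, were scored in the same way. As a mean deviation of 23 genes (log2), their score was -0.28, -0.024 and -0.094 in young libraries, 0.15, 0.43 and 0.22 in middle-aged ones and -0.23, -0.21 and 0.037 in old ones. The score was thus highest in the middle-aged libraries, all of which lay above every young one, and old and young libraries overlapped. In middle-aged against young libraries 0 of the 23 were called by limma, and the median change was 0.41 (log2). There 18 were higher and 0 lower at an unadjusted p under 0.05 (limma), against 11.4% of all genes in either direction. The authors' deposited table called 10 higher and 0 lower for those ages. None of the 23 was called in old against young libraries by limma, 7 had an unadjusted p under 0.05 and the authors' deposited table called 1 higher and 3 lower; Klf4 had -0.50 ± 0.134 and Egr1 -0.36 ± 0.105 (limma adjusted p = 0.0932 and 0.112). In old against middle-aged libraries 2 fell, Fosb by 1.00 and Egr1 by 0.67 on the log2 scale (limma adjusted p = 0.0336 and 0.0415, and 0.0675 and 0.0678 without old replicate 3). The median change there was -0.42 (log2). At an unadjusted p under 0.05 (limma), 15 of the 23 were lower and 0 higher, against 10.2% of all genes in either direction. These ages did not overlap for 13 lower genes and 0 higher, where 12.9% of all genes did not overlap. The authors' deposited table called 7 lower and 0 higher. The part of these genes in the values of Tnf was not tested.

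**Figure D4:**
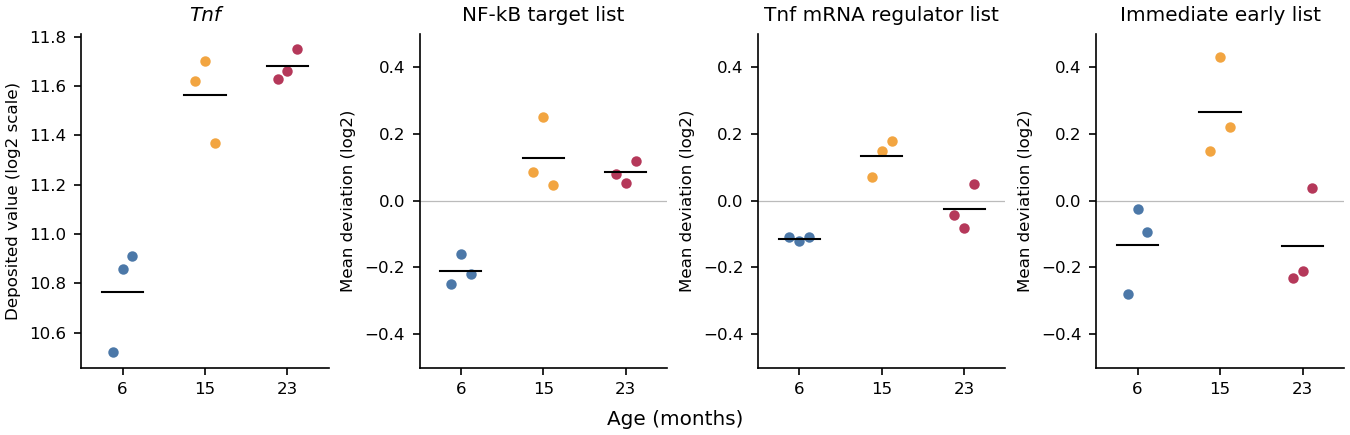
Tnf (left panel, deposited log2-scale value) and 3 gene lists (other panels, mean deviation of the list's genes from their means over 9 libraries, log2) at 6, 15 and 23 months (x axes); points are libraries and bars means. Tnf and the NF-kB target list are higher in all later libraries than in young ones. The immediate early list is higher in all 15-month libraries than in any 6-month library, and its values at 6 and 23 months overlap.

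Monocytes and neutrophils also make TNF family genes. The 10 monocyte markers summed to 35821 to 59670 in old libraries and 29304 to 40511 in young ones on the unlogged scale; 2 of the 10 rose, Fn1 (0.98 ± 0.133) and Plac8 (1.03 ± 0.184; limma adjusted p = 0.00429 and 0.0223). Without old replicate 3 Fn1 was called and Plac8 was not (limma adjusted p = 0.00474 and 0.0567). Of the monocyte markers 3 were higher and 0 lower at an unadjusted p under 0.05 (limma), and the authors' deposited table called 3 higher and 0 lower. Old and young libraries did not overlap for 4 higher genes and 0 lower, where 24.5% of all genes did not overlap. Their mean deviation was -0.1 to 0.46 in old libraries and -0.37 to -0.13 in young ones (log2), without overlap. In middle-aged libraries these markers summed to 39718 to 76591, with a mean deviation of -0.14 to 0.4 (log2). Against young libraries 0 of the 10 were called there by limma, and the median change was 0.33. At an unadjusted p under 0.05 (limma), 3 were higher and 0 lower, against 11.4% of all genes. Middle-aged and young libraries did not overlap for 5 higher genes and 0 lower, against 21.6% of all genes. The authors' deposited table called 1 higher and 0 lower. Neutrophil markers summed to 261449 to 530524 in old and 315844 to 546844 in young libraries, with 0 of 10 called by limma, 0 at an unadjusted p under 0.05 and 0 in the authors' deposited table. In middle-aged libraries they summed to 477232 to 1036918. Their median change in middle-aged against young libraries was 0.62 (log2), with 0 of 10 called by limma, 3 higher and 1 lower at an unadjusted p under 0.05 and 1 called lower in the authors' deposited table. S100a8 had 1.07 ± 0.385 and S100a9 0.85 ± 0.365 in that comparison (limma adjusted p = 0.316 and 0.409). None of the first 3 markers of either list was near 0, with Ly6c2, the lowest, between 10.73 and 11.91. The part of monocytes and neutrophils in the Tnf, Tnfsf9 and Tnfsf13b values was not tested.

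By root mean square difference of values centred over the 9 libraries, the genes most like Tnf were the intermediate filament gene Vim (0.112), the transcriptional inhibitor gene Id2 (0.125) and the chemokine gene Ccl12 (0.136). Those most like Tnfsf8 were Fam20c (0.145), Gas2l3 (0.164) and Il1r1 (0.169). Tnfsf9 was most like Tnf itself (0.155), and Vim was also among its closest genes (0.164). Tnfrsf17 was most like the B-cell scaffold gene Bank1 (0.0655), Gab1 (0.0768) and Slc16a6 (0.0796). The log2 change of Bank1 in old against young libraries was -0.64, beside -0.61 for Tnfrsf17.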

How the data were processed

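RNA was sequenced from sorted microglia, pooled from 3 mice per library, using the SMARTer Ultra Low RNA kit, per the labels' protocols. Build mm10 and the tools cutadapt 1.13, CASAVA, DESeq2 1.16.1 and STAR 2.5.3 were used by the authors, per the submitters' processing notes; neither their roles nor the annotation is stated there. The authors' deposited table per library is named for normalized counts but holds log2 values, from -2.14 to 20.05; the transformation is not stated. The authors' deposited comparison tables hold, per the file headers, the log2 fold change with its SE, the p-value raw and adjusted, a test score and the mean normalized signal. Their fold changes are older minus younger: the sign matched the difference of deposited values for all called genes that were also tested.

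Genes at or above log2 of 10 in at least 3 libraries were tested in R 4.3.3 by limma 3.58.1 (variance trend on) on the 9 libraries in 3 groups, two-sided, with Benjamini-Hochberg adjustment over 14955 genes. Residual degrees of freedom were 6 and prior ones 4.57. The smallest p an exact permutation test allows here is 0.1. P-values measure the spread between pools. The test was checked on simulated data. The members and lists were chosen with earlier results of these data known. All 10 members were named; from each list the rule took up to 3 called genes per direction in old against young, or the 2 with smallest p. Receptors of member ligands, cluster neighbours and further marker genes were named for their known role. Some genes that these rules name are not reported here. Coordinates and lengths come from GENCODE M21 (GRCm38), which holds 99.8% of tested symbols, and promoters from RefSeq (GRCm38.p6). Depth is unknown, so no counting interval is given. Alternatives are listed in the closing section.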

Additional observations from a re-analysis of the deposited data

How the results depend on the processing

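Alternatives were a pseudocount of 1, no filter or a filter at log2 of 50, libraries shifted to 1 median, no variance trend, library weights, the replicate number as a block, only the 2 ages compared, and leaving out each library. The labels do not say whether same-numbered libraries share anything but the number. Deviations of same-numbered libraries correlated from -0.242 to 0.234. Libraries with different numbers were not compared, so these values cannot tell whether a batch was shared. Under the replicate block, 3 of the 10 genes were called in old against young libraries in place of 4, and of all genes 185 in place of 299, 11 in place of 17 at 15 against 6 months and 14 in place of 26 at 23 against 15 months. For old against young libraries, 2 of the 10 genes were called with only those ages in the fit, 3 with no filter, 5 with library weights (Tnfsf13b added) and 2 to 4 when 1 library was left out. At 15 against 6 months, 1 was called with the filter at log2 of 50 (Tnf), 3 with library weights (Tnf, Tnfsf8, Tnfsf13b), and 0 to 1 when 1 library was left out. Over all genes, in old against young libraries, 170 were called with no filter, 1609 with library weights, 153 with only those ages and 83 to 322 when 1 library was left out. At 15 against 6 months these counts were 10 with no filter, 29 with the filter at log2 of 50, 312 with library weights and 4 to 49 when 1 library was left out. At 23 against 15 months they were 9 with no filter, 47 with the filter at log2 of 50, 3 with no variance trend, 62 with library weights, 0 with only those ages and 3 to 23 when 1 library was left out. The difference between steps was called for 0 to 5 genes when 1 library was left out.

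Signs turned only for changes that were not called. With library weights Tnfsf10 had -0.022 in old against young and Tnfrsf11a -0.032 in old against middle-aged libraries. Leaving out 1 library, the range in old against young libraries was -0.067 to 0.163 for Tnfsf10 and -0.279 to 0.0913 for Tnfrsf11a. In middle-aged against young libraries it was -0.278 to 0.0628 for Tnfsf10, -0.0437 to 0.139 for Tnfrsf1a and -0.0427 to 0.0789 for Tnfrsf1b. In old against middle-aged libraries it was -0.0747 to 0.065 for Tnfsf13b, -0.0131 to 0.164 for Tnfrsf1b, -0.102 to 0.265 for Tnfrsf11a and -0.000767 to 0.116 for Tnfrsf13b. For the difference between steps it was -0.45 to 0.059 for Tnfsf8, -0.0452 to 0.637 for Tnfsf10, -0.0831 to 0.16 for Tnfrsf1b and -0.0885 to 0.137 for Tnfrsf17. The causes were not tested, and unknown depth limits what can be said of low genes such as Tnfrsf9.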
